A study of Mus musculus with 7 samples.

Results

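Chemokines are small secreted proteins that attract leukocytes by binding receptors coupled to G proteins. They are named CC or CXC by the spacing of their first cysteines. The 10 chemokine genes described here are Ccl2, Ccl3, Ccl4, Ccl5, Ccl7, Ccl12, Cxcl9, Cxcl10, Cxcl13 and Cxcl16, taken by gene symbol from the 55401 rows of the deposited count table. All 10 were found, and all 10 passed the filter on low counts, which left 19199 genes to test. In the brain, microglia and border macrophages are among the cells that make them, and NF-kB and interferon signalling raise their transcription. CCL2, CCL7 and CCL12 act through CCR2 on monocytes. CCL3, CCL4 and CCL5 attract monocytes and T cells, and CCR1 is a receptor for CCL3 and CCL5. CXCL9 and CXCL10 attract activated T and NK cells through CXCR3, CXCL13 attracts B cells through CXCR5, and CXCL16, which is made as a membrane protein and released by cleavage, binds CXCR6.

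The RNA came from CD11b-enriched microglia of the dorsal hippocampus of C57BL/6 mice aged 6 to 8 weeks. In all animals AAV-RAM-Cre, which puts Cre under an activity-dependent promoter, was placed in the dorsal dentate gyrus to reach the neurons of a memory engram. The control group, EYFP, had 4 libraries from mice that also received AAV-Dio-EYFP, and the ATG7 group had 3 libraries from mice that received AAV-Dio-Atg7-Flag instead, so both carried Cre and a Cre-dependent virus. The overexpressed gene is needed for autophagy and was directed at neurons, not at the sequenced cells, where Atg7 averaged 35.5 CPM in controls and 34.9 CPM in the other group (log2 fold change -0.03, edgeR adjusted p = 0.939). The labels do not say whether a library is 1 mouse or a pool, so p-values measure the spread between these libraries, which may be partly technical.

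Total counts lay between 35934210 and 55217119 per library, and 145 genes differed between the groups, or 0.755% of those tested (quasi-likelihood test of edgeR, called at an adjusted p under 0.05). Levels are given as CPM, the count relative to the library total, scaled with trimmed means of M values (TMM), and fold changes are ATG7 against EYFP on the log2 scale. The 9 microglia markers summed to between 21622 and 26357 CPM in EYFP and between 21435 and 26432 CPM in ATG7. Transcripts of choroid plexus were also abundant, with 6 markers summing to between 31683 and 48597 CPM over the 7 libraries. EYFP 3 stood apart: Xist, the transcript of the inactive X chromosome, was at 938.0 CPM there and at most 0.573 CPM in the other libraries, although the series is described as male. The Y-linked Ddx3y was lower in EYFP 3 but present, at 27.6 CPM against 121.1 to 168.6 CPM in the others, and the other Y-linked genes Eif2s3y, Kdm5d and Uty were likewise lowest there. The members' results are therefore also given without EYFP 3.

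Of the 10 chemokines, 7 lie on chromosome 11 and 3 on chromosome 5 of GRCm38. Ccl2, Ccl7 and Ccl12 are neighbours on the plus strand, with 8.258 kb between Ccl2 and Ccl7 and 54.319 kb between Ccl7 and Ccl12. Ccl3 and Ccl4 lie 13.228 kb apart on opposite strands. Cxcl9 and Cxcl10 are 18.558 kb apart, both on the minus strand. Promoter sequences from RefSeq (GRCm38.p6) were matched for 5 members, Ccl3, Ccl12, Cxcl9, Cxcl10 and Cxcl13. The 250 bases before the start site are shown for Cxcl10 and Cxcl9, which lie side by side and encode CXCR3 ligands, and for Ccl12, the CC chemokine that passed the test. Capitals mark matches, on either strand, to the interferon-stimulated response element (ISRE: GAAA, 2 bases of any kind, GAAA) or the kB consensus.
Cxcl10, chr5:92348890-92349139, minus strand: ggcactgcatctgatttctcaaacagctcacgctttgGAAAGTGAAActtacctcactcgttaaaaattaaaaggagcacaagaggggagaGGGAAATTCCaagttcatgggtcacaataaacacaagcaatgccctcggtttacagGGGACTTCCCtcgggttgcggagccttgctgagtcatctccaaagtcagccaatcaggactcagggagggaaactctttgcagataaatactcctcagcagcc
Cxcl9, chr5:92328080-92328329, minus strand: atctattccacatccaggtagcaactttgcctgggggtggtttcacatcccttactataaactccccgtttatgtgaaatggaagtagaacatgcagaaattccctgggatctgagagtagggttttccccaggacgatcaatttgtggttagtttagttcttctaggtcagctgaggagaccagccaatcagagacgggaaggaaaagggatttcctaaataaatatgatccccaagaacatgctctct
Ccl12, chr11:82101595-82101844, plus strand: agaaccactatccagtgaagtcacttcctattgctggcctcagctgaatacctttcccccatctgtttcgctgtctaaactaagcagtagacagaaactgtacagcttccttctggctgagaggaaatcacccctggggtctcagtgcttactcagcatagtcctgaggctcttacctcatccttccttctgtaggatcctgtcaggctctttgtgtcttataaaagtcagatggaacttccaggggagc
In Cxcl10 the ISRE match began 213 bases before the start site, and the kB matches began 159 and 103 bases before it; no match overlapped another. The windows of Ccl3, Ccl12, Cxcl9 and Cxcl13 held no match to these letters or to the gamma-activated site TTCNNNGAA. Among 32851 windows of the same length over all genes, 2.98% held the ISRE, 3.90% the kB consensus and 7.02% the gamma-activated site. These matches describe the sequence and are not shown to be bound.

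The 10 transcripts were higher on average in the ATG7 libraries, by a log2 fold change of 0.44 for Ccl7 to 2.13 for Cxcl13. Of these 10 genes, Ccl12 and Cxcl16 rose by the test, 0 fell, and 8 did not pass; over all genes tested, 0.688% were called higher and 0.0677% lower. In 8 of the 10 every ATG7 library lay above every EYFP library, against 6.33% of all genes tested, and 9 had an unadjusted p under 0.05, against 6.27% of all genes higher at that level. A fold change above 0 was found for 10 of 10 members and for 49.2% of all genes. The members were chosen with earlier results of these data known, so these shares describe them and test nothing. The median log2 fold change was 0.96 over the 10 genes and -0.00365 over all genes tested. Their summed level averaged 218.5 ± 63.7 CPM over the controls (SD, n = 4) and 449.0 ± 59.4 CPM over the ATG7 libraries (SD, n = 3). The highest EYFP library summed to 283.7 CPM and the lowest ATG7 library to 381.8 CPM. Without EYFP 3 the controls' sum averaged 246.3 ± 37.9 CPM (SD, n = 3), the median log2 fold change of the 10 genes was 0.83, and the groups did not overlap in 8 of the 10, against 8.56% of all genes tested. In tissue of this kind, more cells that make a transcript and more transcript per cell cannot be told apart.

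**Figure D1:**
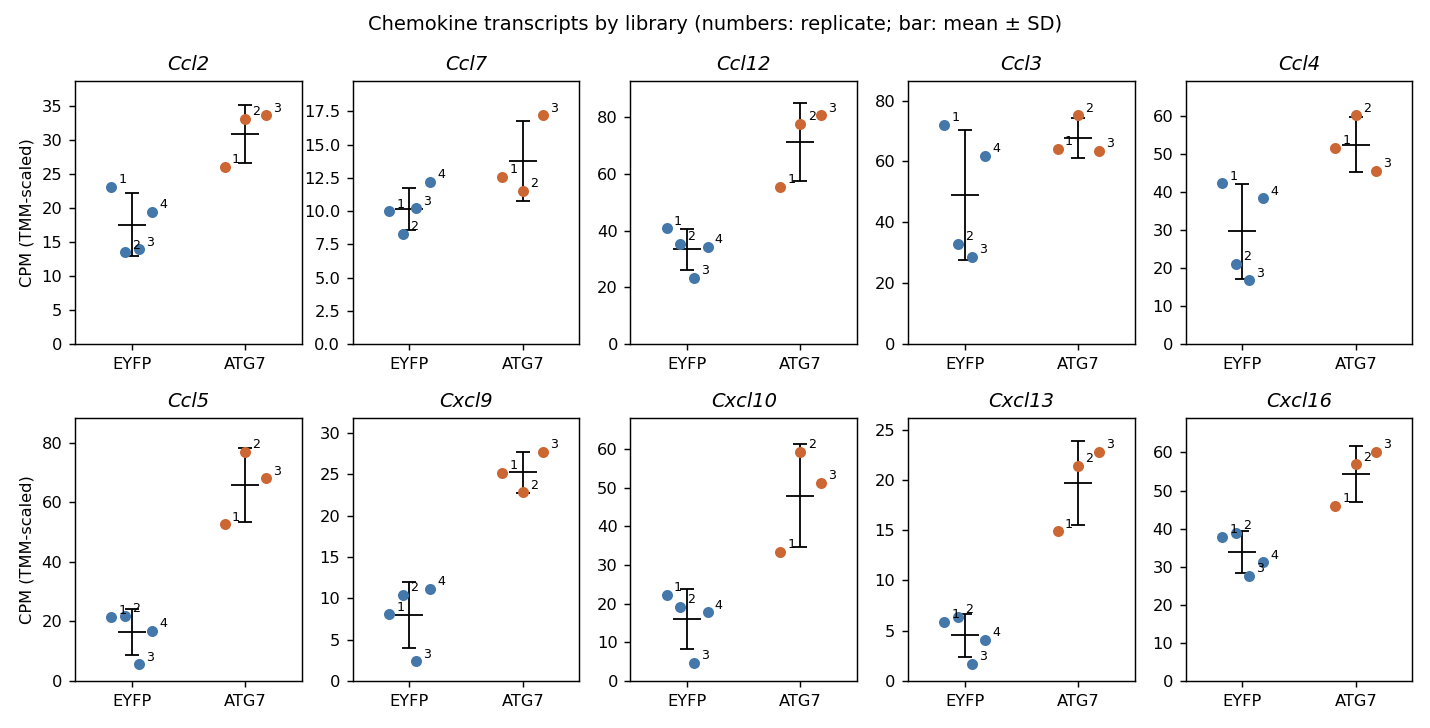
Level of each chemokine transcript in CPM scaled by TMM factors, linear axis from 0, in the 4 EYFP libraries (blue) and the 3 ATG7 libraries (orange), with replicate numbers, mean and SD. The groups do not overlap in 8 of the 10 panels, and in Ccl3 and Ccl7 they do. EYFP 3 is the lowest of the 7 libraries in 8 panels.

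Among the CCR2 ligands, which recruit monocytes, Ccl12 (monocyte chemotactic protein 5; ENSMUSG00000035352, chromosome 11, 82101845 to 82103400) passed the test. Its level was 40.7, 35.3, 23.4 and 34.2 CPM in EYFP 1 to 4 and 55.5, 77.5 and 80.5 CPM in ATG7 1 to 3. The groups did not overlap, and the gap between them, from EYFP 1 to ATG7 1, was narrower than the distance from ATG7 1 to the other ATG7 libraries. The mean rose from 33.4 ± 7.28 CPM among controls (SD, n = 4) to 71.2 ± 13.7 CPM in the ATG7 group (SD, n = 3). Its log2 fold change was 1.09, standard error (SE) 0.189 (edgeR adjusted p = 0.0431). The call depended on the libraries and the fit. Without EYFP 3 the log2 fold change of Ccl12 was 0.95 (edgeR adjusted p = 0.0107), but the call was lost without EYFP 2, EYFP 4, ATG7 2 or ATG7 3 (edgeR adjusted p = 0.164, 0.112, 0.186 and 0.157). It was also lost with no filter on low counts (edgeR adjusted p = 0.176) and with the replicate number as a block (edgeR adjusted p = 0.269).

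Ccl2 (monocyte chemotactic protein 1; ENSMUSG00000035385, chromosome 11, 82035571 to 82037453) stood at 23.2, 13.5, 14.0 and 19.4 CPM in EYFP 1 to 4 and at 26.04, 33.1 and 33.6 CPM in ATG7 1 to 3. EYFP 1 was close to ATG7 1, and the groups did not overlap. The log2 fold change was 0.82 (SE 0.186) and missed the threshold (edgeR adjusted p = 0.0976); without EYFP 1 it was 0.99 and passed (edgeR adjusted p = 0.0119). Ccl2 did not pass without any other single library: the log2 fold change was 0.71 without EYFP 2, 0.72 without EYFP 3 and 0.75 without ATG7 3 (edgeR adjusted p = 0.178, 0.132 and 0.333). The neighbouring Ccl7 (monocyte chemotactic protein 3; ENSMUSG00000035373, chromosome 11, 82045712 to 82047525) was at 9.99, 8.28, 10.2 and 12.2 CPM in EYFP 1 to 4 and at 12.6, 11.5 and 17.2 CPM in ATG7 1 to 3. Here the groups overlapped, since EYFP 4 exceeded ATG7 2, and ATG7 3 was the highest library. For Ccl7 the log2 fold change was 0.44 (SE 0.161; edgeR adjusted p = 0.301), 0.43 without EYFP 3 (edgeR adjusted p = 0.379) and 0.24 without ATG7 3. Transcripts of Ccr2, the receptor of all 3 ligands and a marker of monocytes, overlapped between the groups, from 17.4 to 23.4 CPM in EYFP and from 17.7 to 23.7 CPM in ATG7 (log2 fold change -0.03, edgeR adjusted p = 0.964).

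Among Ccl3, Ccl4 and Ccl5, the last (RANTES, also made by T and NK cells; ENSMUSG00000035042, chromosome 11, 83525778 to 83530518) had the largest difference. It stood at 21.4, 22.0, 5.52 and 16.8 CPM in EYFP 1 to 4 and at 52.6, 76.9 and 68.1 CPM in ATG7 1 to 3. Every ATG7 library lay above all of the controls, and EYFP 3 was far below the other controls. The control mean was 16.4 ± 7.64 CPM (SD, n = 4) and the ATG7 mean 65.8 ± 12.3 CPM (SD, n = 3), a ratio of 4.005. The log2 fold change of 2.005 (SE 0.452) did not pass (edgeR adjusted p = 0.163). Without EYFP 3 the log2 fold change of Ccl5 was smaller, 1.71, but its SE was 0.146 and it passed (edgeR adjusted p = 0.00121).

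Ccl3 (macrophage inflammatory protein 1-alpha; ENSMUSG00000000982, chromosome 11, 83647844 to 83649355) was at 72.0, 32.9, 28.8 and 61.9 CPM in EYFP 1 to 4 and at 64.2, 75.1 and 63.5 CPM in ATG7 1 to 3. The controls split into a high pair, EYFP 1 and 4, and a low pair, EYFP 2 and 3, and EYFP 1 was above 2 of the ATG7 libraries. Ccl4 (macrophage inflammatory protein 1-beta; ENSMUSG00000018930, chromosome 11, 83662584 to 83664683) showed the same split of the controls, with 42.3, 21.1, 16.8 and 38.4 CPM in EYFP 1 to 4, and 51.7, 60.2 and 45.7 CPM in ATG7 1 to 3. For Ccl4 the groups did not overlap, although EYFP 1 came within a few CPM of ATG7 3. Neither gene passed: the log2 fold change was 0.47 (SE 0.342; edgeR adjusted p = 0.672) for Ccl3 and 0.83 (SE 0.335; edgeR adjusted p = 0.400) for Ccl4. Both fold changes were lower without EYFP 3, at 0.28 for Ccl3 and 0.63 for Ccl4, and that of Ccl3 ranged up to 0.72 without EYFP 1.

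Microglia can raise Ccl3, Ccl4 and immediate-early genes during dissociation, so 15 immediate-early and dissociation genes were listed beside them. None of the 15 passed, 0 had an unadjusted p under 0.05 (edgeR), and DESeq2 and limma-voom also called 0. Of these 15 genes, 14 had a fold change above 0, as the chemokines did, and the median log2 fold change was 0.21. Their summed level ran from 2697 to 4247 CPM in EYFP and from 3606 to 3876 CPM in ATG7. EYFP 4 was high both for this list and for Ccl3 and Ccl4, while EYFP 1 was high for Ccl3 and Ccl4 and low for the list. The part of dissociation in the chemokine levels was not tested. Nfkbiz, an inducible NF-kB cofactor and the member with the smallest p, had a log2 fold change of 0.30 (edgeR adjusted p = 0.514). Transcripts of the receptor gene Ccr1 overlapped between the groups, from 22.6 to 28.7 CPM in EYFP and from 20.8 to 30.1 CPM in ATG7 (log2 fold change -0.03, edgeR adjusted p = 0.955).

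Of the interferon-inducible CXCR3 ligands, Cxcl9 (ENSMUSG00000029417, chromosome 5, 92321347 to 92328079) stood at 8.08, 10.5, 2.37 and 11.2 CPM in EYFP 1 to 4. In ATG7 1 to 3 it was at 25.2, 22.8 and 27.7 CPM, a narrow range above all controls. Cxcl10 (ENSMUSG00000034855, chromosome 5, 92346638 to 92348889) was at 22.2, 19.1, 4.72 and 17.8 CPM in EYFP 1 to 4 and at 33.4, 59.2 and 51.3 CPM in ATG7 1 to 3. In both genes EYFP 3 held the lowest value, 4.71-fold below the highest control in each, and the groups did not overlap. Ratios of the means were 3.15 for Cxcl9 and 3.005 for Cxcl10.

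Neither Cxcl9 nor Cxcl10 passed in the fit of all 7 libraries. The log2 fold changes were 1.66 (SE 0.455; edgeR adjusted p = 0.226) for Cxcl9 and 1.59 (SE 0.505; edgeR adjusted p = 0.297) for Cxcl10. Without EYFP 3 both passed with smaller fold changes, 1.34 for Cxcl9 (SE 0.137; edgeR adjusted p = 0.00292) and 1.28 for Cxcl10 (SE 0.187; edgeR adjusted p = 0.0180). Cxcl11, the other CXCR3 ligand and no member of the 10, showed a like spread at low level, from 0.0886 to 1.31 CPM in EYFP and from 1.97 to 4.49 CPM in ATG7 (log2 fold change 2.09, SE 0.591; edgeR adjusted p = 0.194); it was singled out after its values were seen. Cxcr3, the receptor gene, was at 2.11 to 3.14 CPM in EYFP and at 1.92 to 3.998 CPM in ATG7 (log2 fold change 0.23, edgeR adjusted p = 0.793). The exons of Cxcl10 share 133 bases, 5.91% of its exon length, with Art3 on the opposite strand. The handling of strand is not given in the sources used here. Art3 was at 2.94 to 4.93 CPM over the 7 libraries (log2 fold change 0.16, edgeR adjusted p = 0.812). Its part in the Cxcl10 value was not tested.

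Cxcl13 (B lymphocyte chemoattractant; ENSMUSG00000023078, chromosome 5, 95956951 to 95961068) had the largest fold change of the 10. It was at 5.87, 6.41, 1.71 and 4.12 CPM in EYFP 1 to 4 and at 14.9, 21.4 and 22.8 CPM in ATG7 1 to 3. Every ATG7 library lay well above the highest control, and EYFP 3 was again the lowest. The log2 fold change of 2.13 (SE 0.393) missed the threshold (edgeR adjusted p = 0.0768). Without EYFP 3 it was 1.84 and passed (edgeR adjusted p = 0.00301). With all 7 libraries Cxcl13 passed with limma-voom (adjusted p = 0.0225) and DESeq2 (adjusted p = 0.00101). It also passed with a filter at a mean CPM of 1 (edgeR adjusted p = 0.0455). Of 15 alternative fits, Cxcl13 passed in 4. Its receptor gene Cxcr5 did not exceed 0.458 CPM in any library (log2 fold change 0.47, edgeR adjusted p = 0.737), and B cell markers overlapped, with sums from 12.04 to 13.1 CPM in EYFP and from 8.56 to 13.5 CPM in ATG7.

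Cxcl16 (ENSMUSG00000018920, chromosome 11, 70453983 to 70459984) lies apart from the CC cluster and had the smallest p of the 10. It stood at 37.9, 38.8, 27.6 and 31.1 CPM in EYFP 1 to 4 and at 45.9, 56.8 and 60.1 CPM in ATG7 1 to 3. The groups did not overlap, and the controls kept within a 1.41-fold range, the narrowest of the 10 genes. The mean rose from 33.9 ± 5.41 CPM among controls (SD, n = 4) to 54.3 ± 7.43 CPM in the ATG7 group (SD, n = 3), with a log2 fold change of 0.68 (SE 0.130; edgeR adjusted p = 0.0420). Without EYFP 3 it was 0.59 and just missed the threshold (edgeR adjusted p = 0.0570). The call was also lost without EYFP 4, ATG7 2 or ATG7 3 (edgeR adjusted p = 0.135, 0.186 and 0.206) and with the replicate number as a block (edgeR adjusted p = 0.376).

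Zmynd15, on the opposite strand, shares 552 exon bases with Cxcl16, or 18.3% of the Cxcl16 exon length. Without the strand setting, reads of the shared part cannot be assigned between them. Zmynd15 was at 5.98 to 10.5 CPM in EYFP and 11.4 to 15.2 CPM in ATG7, also without overlap (log2 fold change 0.64, SE 0.186; edgeR adjusted p = 0.181), and its part in the Cxcl16 value was not tested. The receptor gene Cxcr6, a T and NK cell transcript, was at 0.554 to 1.20 CPM in EYFP and at 1.37, 1.71 and 3.57 CPM in ATG7 1 to 3, without overlap (log2 fold change 1.24, SE 0.360; edgeR adjusted p = 0.179). Of the proteases that release CXCL16 from the membrane, Adam10 had a log2 fold change of 0.05 and Adam17 of 0.19, neither of which passed (edgeR adjusted p = 0.883 and 0.404).

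Levels were compared between the genes per kilobase of exon. In EYFP the order was led by Ccl3 at 63.8 ± 27.8, Ccl12 at 62.2 ± 13.6 and Ccl4 at 45.0 ± 19.1 CPM per kb (SD, n = 4), and these neighbours overlapped in range. Then followed Ccl5, Ccl2, Ccl7, Cxcl16, Cxcl10 and Cxcl13, from 17.1 to 3.94 CPM per kb, and Cxcl9 was last at 2.66 ± 1.32 CPM per kb (SD, n = 4). Only the step from Ccl4 to Ccl5 separated neighbours without overlap in EYFP. In ATG7 Ccl12 came first at 132.5 ± 25.5 CPM per kb (SD, n = 3), above the range of Ccl3 at 88.3 ± 8.53 CPM per kb (SD, n = 3). Ccl4 and Ccl5, at 79.6 and 68.6 CPM per kb, overlapped with their neighbours above, and the step down to Ccl2 at 27.2 CPM per kb did not overlap. As a share of the summed per-kilobase level of the 10 genes, Ccl5 made up 3.81% to 10.6% in EYFP libraries and 13.4% to 15.1% in ATG7 libraries, and Cxcl13 0.984% to 2.58% and 3.16% to 3.997%. The share of Ccl12 overlapped between the groups, from 22.9% to 30.4% and from 25.2% to 30.3%.

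Outside the 10 members, 27 other chemokine ligand genes were listed, of which 18 could be tested and 0 passed (edgeR); 3 had an unadjusted p under 0.05, and DESeq2 and limma-voom called 1 each. The smallest p was that of Ccl22, a ligand of CCR4 made by dendritic cells and activated macrophages, at 0.798 to 2.55 CPM in EYFP and 3.92 to 6.94 CPM in ATG7 (log2 fold change 1.65, SE 0.327; edgeR adjusted p = 0.05001, just above the threshold), and without EYFP 3 it passed (log2 fold change 1.41, edgeR adjusted p = 0.0370). Of these 18 genes, 10 had a fold change above 0, and the median log2 fold change was 0.06. Among 8 tested receptors that do not bind the 10 members, Ccr7, the receptor that guides dendritic cells and T cells to lymph nodes, rose from 1.22 ± 0.435 CPM among controls (SD, n = 4) to 4.13 ± 0.984 CPM in the ATG7 group (SD, n = 3); the log2 fold change was 1.76 (SE 0.275; edgeR adjusted p = 0.0182). None of the 6 listed receptors of the members passed (edgeR; 1 had an unadjusted p under 0.05, DESeq2 called 1 and limma-voom 0). Of the 4 atypical receptors tested 0 passed (edgeR; 2 had an unadjusted p under 0.05, DESeq2 called 1 and limma-voom 0). Ccrl2, which presents the chemokine-like protein chemerin, came nearest with a log2 fold change of 0.58 (edgeR adjusted p = 0.0770).

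**Figure D2:**
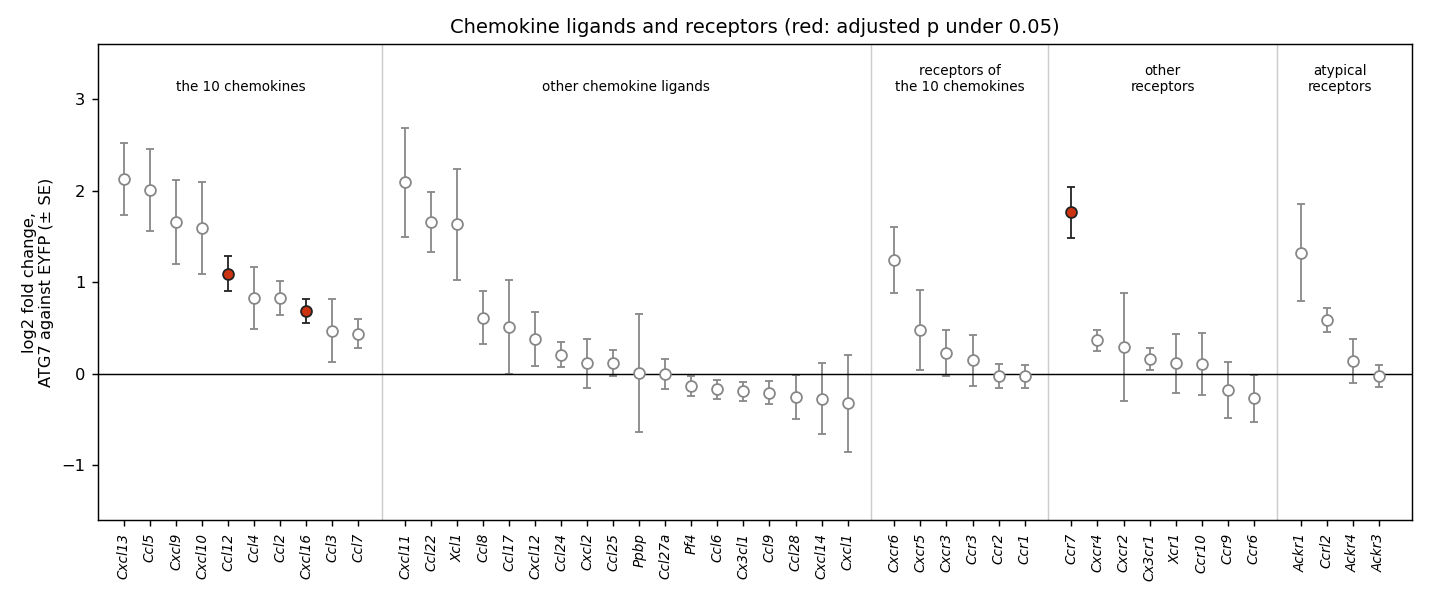
Log2 fold change of ATG7 against EYFP with its SE for the tested chemokine ligand and receptor genes of the lists, grouped by list and sorted within each list. Ccl12, Cxcl16 and Ccr7 are the genes that passed an adjusted p under 0.05 (red). All 10 members, chosen with earlier results of these data known, lie above 0, and the 18 other ligands lie on both sides of it.

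Regulators known to act upstream of these chemokines were taken from 2 further lists. Of 14 NF-kB, STAT and IRF genes, 3 rose and 0 fell, with a median log2 fold change of 0.28. Over all genes tested, 0.688% were called higher and 0.0677% lower. Stat2 rose by 0.93 (edgeR adjusted p = 0.0137), Nfkb2 by 0.56 (edgeR adjusted p = 0.0354) and Irf1 by 0.53 (edgeR adjusted p = 0.0483). Without EYFP 3 only Stat2 of these kept its call (edgeR adjusted p = 0.0107). In that fit Nfkb2 and Irf1 did not pass (edgeR adjusted p = 0.0720 and 0.107), and Irf7 did (log2 fold change 1.35, edgeR adjusted p = 0.0482). The share called there over all genes tested was 0.871%. Among 7 tested cytokines that induce or restrain chemokines 0 passed (edgeR; 5 had an unadjusted p under 0.05, DESeq2 called 2 and limma-voom 0). Il1a had the smallest p, with 41.8 to 54.3 CPM in EYFP and 56.3 to 67.1 CPM in ATG7 (log2 fold change 0.37, SE 0.0965; edgeR adjusted p = 0.131).

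Markers of T and NK cells had fold changes in the same direction as the chemokines. The 9 markers summed to 8.38 to 14.3 CPM in EYFP and 15.5 to 28.8 CPM in ATG7, without overlap. Cd4 was the largest part of the sum in each library, at 6.07 to 8.26 CPM in EYFP and 7.62 to 9.11 CPM in ATG7. Cd4 itself overlapped between the groups (log2 fold change 0.24, edgeR adjusted p = 0.581). All 9 had a fold change above 0 and none passed (edgeR; 6 had an unadjusted p under 0.05, DESeq2 called 4 and limma-voom 0); the median log2 fold change was 1.53. None was at 0 in every library. Cd3d, a subunit of the T cell receptor complex, had the smallest p (log2 fold change 2.33, SE 0.564; edgeR adjusted p = 0.106). It was at 0.0443 to 0.319 CPM in EYFP and at 0.574, 0.582 and 1.70 CPM in ATG7 1 to 3. The lowest value, in EYFP 3, lay below the level of 3 counts there, 0.0665 CPM. Without EYFP 3 the log2 fold change of Cd3d was 1.99 (edgeR adjusted p = 0.152). ATG7 3 was the highest library for the sum of the T and NK markers and for 6 of the chemokines, whereas Ccl3, Ccl4, Ccl5 and Cxcl10 were highest in ATG7 2. The part of these cells in the chemokine levels was not tested.

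Of the 6 monocyte and dendritic cell markers, 0 passed (edgeR; 2 had an unadjusted p under 0.05, DESeq2 called 1 and limma-voom 0), with sums from 40.7 to 48.8 CPM in EYFP and from 42.4 to 75.4 CPM in ATG7. Plac8 had the smallest p among them, at 1.79 to 4.25 CPM in EYFP and 4.69 to 11.4 CPM in ATG7 (log2 fold change 1.45, edgeR adjusted p = 0.128). The 7 border macrophage markers summed to 531.9 to 646.2 CPM in EYFP and 568.8 to 643.6 CPM in ATG7, and their member with the smallest p was Cbr2 (log2 fold change -0.28, edgeR adjusted p = 0.274). Neutrophil markers ran from 25.1 to 60.0 CPM in EYFP and from 15.5 to 95.9 CPM in ATG7. None of the marker genes of border macrophages, neutrophils, B cells, choroid plexus, vessels, neurons, astrocytes, oligodendrocytes or microglia passed, and DESeq2 and limma-voom also called 0 in these lists. Unadjusted p under 0.05 (edgeR) was reached by 1 border macrophage, 2 choroid plexus, 1 vessel and 1 astrocyte marker and by 0 in the other lists named here. The genes with the smallest p were Aqp1 for choroid plexus (log2 fold change -0.39), Kdr for vessels (0.45), Gad1 for neurons (-0.97), Aldh1l1 for astrocytes (-0.32), Pdgfra for oligodendrocytes (-0.43), Ly6g for neutrophils (-0.82), Cd79b for B cells (-0.11) and Olfml3 for microglia (0.19). Several of these lists lay to one side of 0. A fold change above 0 was found for 0 of 6 choroid plexus, 0 of 6 neuron, 1 of 7 oligodendrocyte and 6 of 6 vessel markers, with median log2 fold changes of -0.26, -0.50, -0.43 and 0.30. Summed levels of these lists overlapped between the groups, and the controls were uneven. Neuron markers summed to 21.9 CPM in EYFP 1, against 5.70 to 10.8 CPM in the other controls and 7.59 to 9.06 CPM in ATG7. Oligodendrocyte markers summed to 505.8 and 474.4 CPM in EYFP 1 and 2 and to 186.4 and 223.9 CPM in EYFP 3 and 4. In ATG7 the oligodendrocyte sums were 215.5 to 330.1 CPM. The part of these cells in the chemokine levels was likewise not tested.

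**Figure D3:**
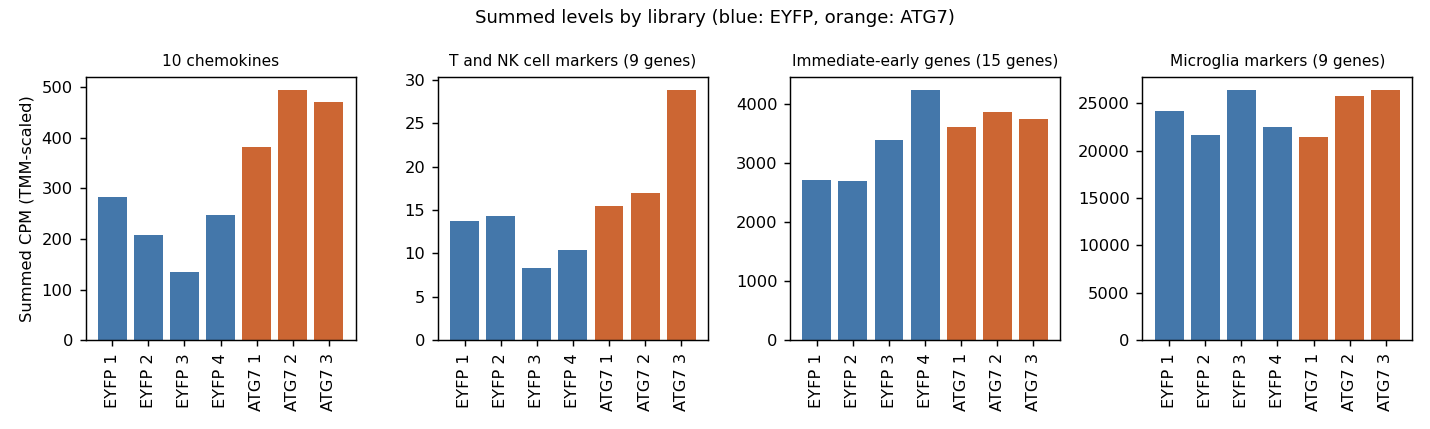
Summed CPM per library, linear axes from 0, of the 10 chemokines, 9 T and NK cell markers, 15 immediate-early and dissociation genes and 9 microglia markers, with EYFP in blue and ATG7 in orange. The groups do not overlap for the chemokines and for the T and NK cell markers, and they overlap for the other lists.

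The number of members called depended on single libraries. It was 5 without EYFP 3 (Ccl5, Ccl12, Cxcl9, Cxcl10 and Cxcl13), where 0.871% of all genes tested were called. It was 3 without EYFP 1 (Ccl2, Ccl12 and Cxcl16), against 1.46% of all genes, and 1 without EYFP 2 (Cxcl16), against 0.499%. It was 0 without EYFP 4, ATG7 2 or ATG7 3, where 9, 7 and 6 members had an unadjusted p under 0.05 (edgeR) and where 0.158%, 0.144% and 0.154% of all genes were called. Without ATG7 1 it was 2, again Ccl12 and Cxcl16, against 0.751%. The fold change stayed above 0 for each of the 10 genes in all 7 of these fits. With DESeq2 5 members passed, Ccl2, Ccl5, Ccl12, Cxcl13 and Cxcl16, against 582 genes in all, or 3.03% of those tested. With limma-voom 3 members passed, Ccl12, Cxcl13 and Cxcl16, against 1.08% of all genes. The same 3 passed with a filter at a mean CPM of 1, against 1.02%.

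**Figure D4:**
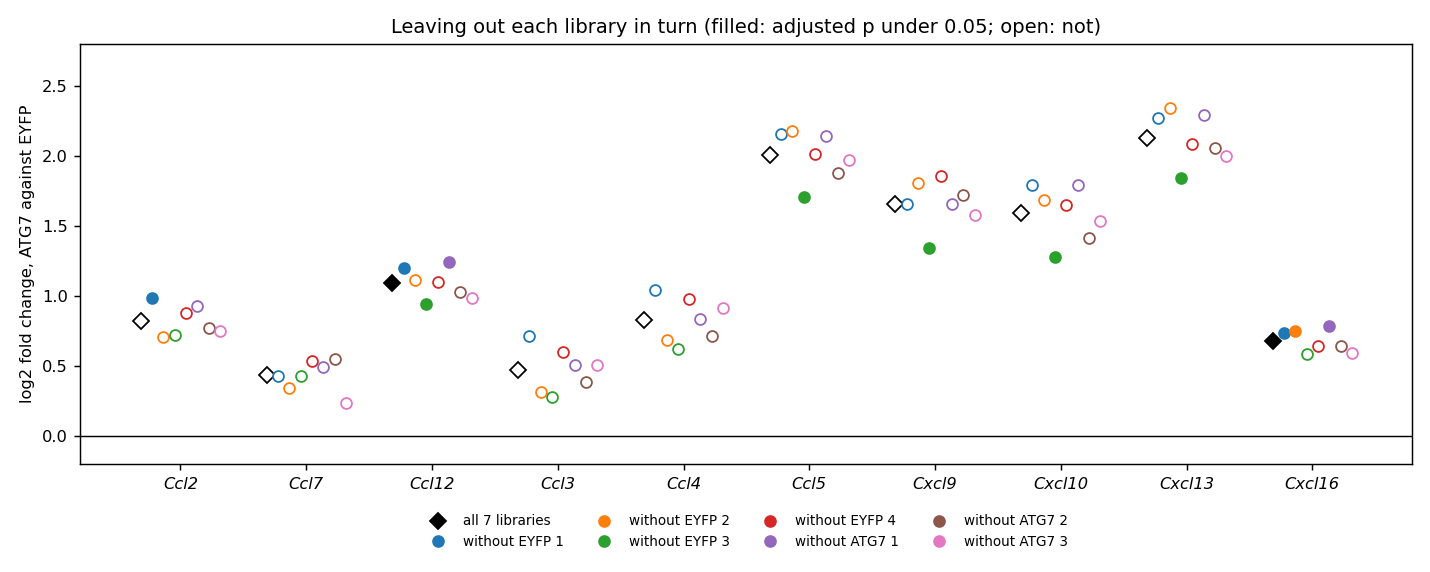
Log2 fold change of each chemokine with all 7 libraries (black diamonds) and with each library left out in turn (coloured circles), filled where the adjusted p is under 0.05. All points lie above 0. Leaving out EYFP 3 (green) lowers the fold change of every gene shown. It fills the points of Ccl5, Cxcl9, Cxcl10 and Cxcl13 and opens that of Cxcl16.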

How the data were processed

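RNA was extracted from CD11b-enriched cells and sequenced as mRNA libraries, per the labels' protocols. The authors deposited raw counts per Ensembl gene, 1 column per library; fastp 0.20.1, HISAT2 2.0.5, featureCounts and the GRCm38 (mm10) build are named per the submitters' processing notes, while strand setting, multi-mapping and annotation release are not given in the sources used here. The 37 mitochondrial genes are at 0 throughout. Columns were matched by label, with 0 left unmatched. Symbols, exon lengths and coordinates came from GENCODE M21 (GRCm38), matching 55141 of 55401 identifiers.

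Counts were fitted with edgeR 4.0.16 in R 4.3.3 (TMM factors, filterByExpr, robust quasi-likelihood test, all 7 libraries, no covariate), with two-sided p adjusted by Benjamini-Hochberg over 19199 genes and called under 0.05. The SE is the log2 fold change over the root of the F statistic. A floor of 3 counts is 0.0546 to 0.0819 CPM, covering counting error only. Same-group libraries differed by a chi-square of 19.2 to 41.3 per degree of freedom, so none was a duplicate. DESeq2 1.42.0, limma 3.58.1 (voom with quality weights), other scalings and filters, a replicate block and leaving out each library were the alternatives. The code was tested on simulated data.

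The members and the gene lists were chosen with earlier results of these data known. From the lists, 2 genes are not reported here. The naming rule was every member, up to 3 called genes with the smallest p of each other list (or the single gene with the smallest p where none was called), and genes whose exons overlap a member. Outside it, Atg7 was named as the overexpressed gene. Ccr1, Ccr2, Cxcr3, Cxcr5, Adam10, Cxcl11, Irf7, Ly6c2, Cd4 and the Y-linked genes were chosen after their values were seen. Markers of choroid plexus, vessels, neurons, astrocytes, oligodendrocytes, neutrophils, B cells and sex were also listed, and 0 of these genes passed (edgeR).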

Additional observations from a re-analysis of the deposited data

How the results depend on the processing

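Over 150 refits of single members under 15 alternatives, 129 kept direction and status, which counts genes that stayed uncalled. A call was lost in 11 and gained in 10, and 0 reversed. The lost calls were 6 of 15 for Ccl12 and 5 of 15 for Cxcl16, the 2 genes called in the reported fit. In the reported fit 145 genes (132 higher, 13 lower) and 2 members were called. With no filter 297 genes, or 0.90% of 33007 tested, and 1 member were called. DESeq2 called 582 genes, or 3.03% of those tested, and 5 members. Leaving out each library gave 28 to 277 genes and 0 to 5 members. Other scalings gave 138 to 142 genes and the same 2 members, and limma-voom 208 genes (183 higher, 25 lower) and 3 members. The share of calls that were higher fell with no filter (234 higher, 63 lower) and DESeq2 (406 higher, 176 lower). The fit with the replicate block called 0 genes and 0 members (edgeR), although all 10 members had an unadjusted p under 0.05. The numbers are not known to pair mice: deviations of same-numbered libraries correlated at -0.0504, -0.175 and 0.0687, and no ATG7 library correlated best with its own number. The causes were not tested. The lowest level of a member was 1.71 CPM, for Cxcl13 in EYFP 3, above the floor of 3 counts, and no fit at matched depth was run.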

Other observations

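Within the controls, EYFP 3 held the lowest level in 8 of the 10 chemokines and EYFP 2 in the other two, Ccl2 and Ccl7. EYFP 1 was the highest control in 5, EYFP 2 in 3 and EYFP 4 in 2. Over all 7 libraries ATG7 3 was highest in 6 chemokines and ATG7 2 in 4. The gap of EYFP 3 below the other controls was widest for Cxcl10, at 0.745 of the controls' range. None of the 10 genes reached the critical value of 0.829 for 4 samples, and groups of 3 were not examined this way.

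The spread among controls differed between the chemokines. The ratio of the highest to the lowest control was 4.71 for Cxcl10 and for Cxcl9, 3.98 for Ccl5 and 3.75 for Cxcl13. It was 2.50 for Ccl3, 2.52 for Ccl4 and no more than 1.74 for Ccl2, Ccl7, Ccl12 and Cxcl16. The genes with the 4 largest fold changes were therefore also those with the widest controls, and the called genes Ccl12 and Cxcl16 were among those with narrow ones.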
